A study of Mus musculus with 37 samples.

Results

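Single macrophages of obese mouse fat were divided by their level of Apoe, the transcript of apolipoprotein E. The series holds 37 cells, and 35 of them entered the split. Cells 7 and 27, which held fibroblast genes, were left out. A cell was called Apoe-low when its Apoe value was below 2500 FPKM (fragments per kilobase of transcript and number mapped, a value scaled to transcript length and to sequencing yield) and Apoe-high at 2500 FPKM or more. This selected 8 Apoe-low and 27 Apoe-high cells. Because the sides were chosen on a measured value and single cells are not replicates, every comparison describes these 35 cells, with no p-value.

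All cells carried the same labels. They were sorted adipose tissue macrophages from the epididymal white fat of male, age-matched C57BL/6J mice fed a high-fat diet with 60% of its energy from fat, 20% from carbohydrate and 20% from protein. The fat was digested with collagenase for 30 min, single cells were captured in the microfluidic chambers of a Fluidigm C1 instrument, and polyadenylated RNA was made into Nextera XT libraries. No label ties a cell to an animal, so the cells count as 1 sample, and neither the age of the mice nor the sort gate is given in the sources used here. There was no lean or other control group.

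Apolipoprotein E is a secreted protein that coats lipoprotein particles and lets cells take them up through receptors on their surface. Macrophages make large amounts of it, load it with cholesterol that leaves through the transporters ABCA1 and ABCG1, and raise its transcription when oxysterols activate the liver X receptors, encoded by Nr1h3 and Nr1h2. Blood monocytes hold little of it, and it accumulates as they mature into tissue macrophages.

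The Apoe-low cells had lower levels of 6 of 13 measured genes of resident, CD206-type macrophages. Sepp1, Mrc1, Maf, Stab1, Folr2 and Ccl8 were each lower by 2 or more on the log2 scale, as were 1.1% of all compared genes. Among the Apoe-high cells alone, Sepp1, Mrc1, Maf, Stab1 and Folr2 had Spearman rho values with Apoe from -0.26 to 0.07. With cells scaled to the same FPKM sum, these values ran from -0.14 to 0.31. Stab1, Ccl8 and the antibody receptor gene Fcgr4 were below 1 FPKM in all 8 Apoe-low cells, so they count as measured only through the Apoe-high cells. They held more of Ccr2, the chemokine receptor of recruited monocytes, of the ribonuclease gene Ear2 and of the transcription factor Batf3, and more of Gapdh and of several respiratory chain subunits. The cholesterol exporter Abcg1 was higher in the Apoe-low cells, whereas Pltp, another lipoprotein gene, lay in the same range on both sides. Pan-myeloid genes such as Tyrobp and Lyz2 were present in every cell of both sides.

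Apoe itself is shown first, as the value that chose the sides. The 8 Apoe-low cells held 15.9 FPKM in cell 25, 17.3 in cell 36, 24.8 in cell 18, 346 in cell 9, 583 in cell 21, 1162 in cell 6, 1595 in cell 20 and 2477 in cell 35. The Apoe-high cells held between 3056 and 52205 FPKM, with a median of 15266. The last cell inside the low side, cell 35 at 2477 FPKM, and the first outside it, cell 8 at 3056 FPKM, were close, so the threshold did not fall in a wide gap. On a log scale the widest step among the 35 cells lay lower, between cell 18 and cell 9. The cells that were left out held 36.01 FPKM (cell 7) and 81.4 FPKM (cell 27). When every cell was scaled to the same FPKM sum, the 8 cells with the least Apoe were the same 8.

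**Figure D1:**
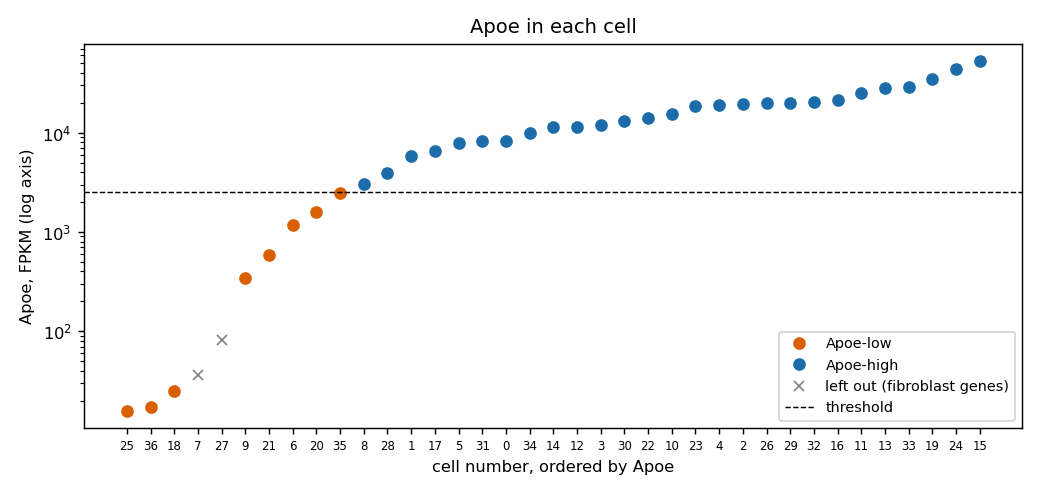
Apoe in each of the 37 cells, ordered by value, in FPKM on a log axis; orange points are Apoe-low cells, blue points Apoe-high cells, grey crosses the cells left out, and the dashed line is the threshold of 2500 FPKM. Cells 25, 36 and 18 stand near 20 FPKM, and the other 5 Apoe-low cells, from 346 to 2477 FPKM, run on towards the Apoe-high cells.

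Yield and detection differed between cells. The FPKM sum was 247234 to 618604 in the Apoe-low cells (median 311376) and 225528 to 1841670 in the Apoe-high cells (median 326230). The Apoe-low cells had a median of 2053.5 genes at 1 FPKM or more, against 1725 in the Apoe-high cells, with overlapping ranges (1254 to 2404 and 1224 to 2769). The number of fragments per cell is unknown. A stand-in for it, what 1 fragment was worth relative to the median cell, had a median of 0.812 in the Apoe-low and 1.00 in the Apoe-high cells. Cells with this worth over 4 are called shallow here, and they made up 0 of the 8 Apoe-low and 6 of the 27 Apoe-high cells. An exact 0 can be a failed estimate in such a table: Gapdh was listed at 0 in 0 Apoe-low and 2 Apoe-high cells, Rpl3 in 0 and 3, and Hprt in 0 and 6. Of the cells numbered 0 to 19, 3 were Apoe-low and 16 Apoe-high, and of those numbered 20 to 36, 5 and 11. These are blocks of cell numbers only, since the labels name no library part or batch.

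Genes were called measured at 1 FPKM or more in at least 5 of the 35 cells, and 4369 of the 23947 genes passed. Without Apoe, 4368 genes were compared as the difference of the mean log2(FPKM + 1), Apoe-low minus Apoe-high. By 2 or more on this scale, 169 genes were higher in the Apoe-low cells, 3.87% of those compared, and 48 were lower, 1.1%. The median difference of all compared genes was 0.03, and the median spread between the cells of a side (pooled SD) was 2.13, larger than the difference that made a call. Every called gene overlapped between the sides. The excess of higher over lower genes depended on the setting. Of the called genes, 77.9% were higher in Apoe-low as deposited and 65.0% (106 higher, 57 lower) when cells were scaled by their median ratio over 88 genes found in every cell. The share was 64.3% (207 and 115) when Apoe-low meant below 1000 FPKM. Against the 13 Apoe-high cells with the most genes (median 2120 genes), it was 46.0% (125 and 147), and within cells 0 to 19 it was 54.7% (341 and 282). Scaling each cell to the same FPKM sum moved the median of all genes to 0.17.

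**Figure D2:**
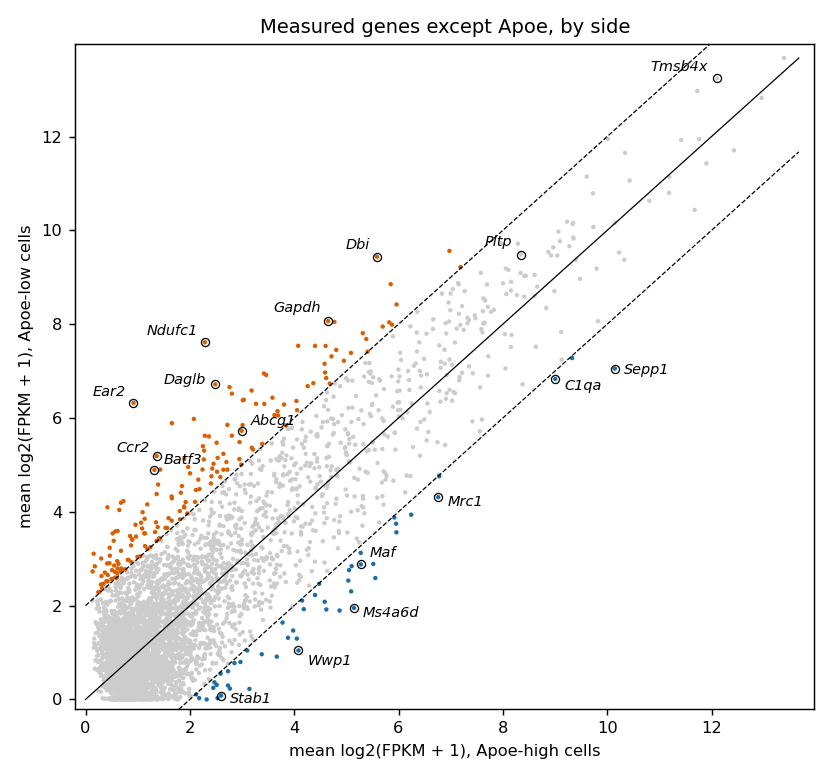
Mean log2(FPKM + 1) of each of the 4368 compared genes in the 27 Apoe-high cells (x axis) and the 8 Apoe-low cells (y axis); the solid line marks equal means, the dashed lines a difference of 2, orange and blue points the genes beyond them, and circles the genes named on the plot. Ear2 and Ccr2 are orange points with a low mean in the Apoe-high cells, Dbi and Gapdh orange points with a higher one, and Sepp1 and C1qa blue points with high means on both sides.

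Every cell of both sides held some of the listed macrophage markers, the fewest in Apoe-low cell 18. Of the 15 macrophage markers, an Apoe-low cell had 8 to 14 at 1 FPKM or more (median 12) and an Apoe-high cell 9 to 14 (median 13). Cells 7 and 27, left out for their fibroblast genes, had 9 and 10, so this count alone does not mark a cell as a macrophage. Their Tyrobp values were low, at 12.1 and 21.3 FPKM. Tyrobp, which encodes a signalling adaptor of myeloid receptors, spanned 1392 to 4813 FPKM in the Apoe-low cells (median 2040.1) and 278 to 6987 in the Apoe-high cells (median 1260.0), a difference of 0.63. Lyz2, the macrophage lysozyme, differed by 0.51, with medians of 4999 and 3052 FPKM. These ranges overlapped widely. Of the same 15 markers, 2 were lower by 2 or more in the Apoe-low cells and 0 were higher, beside 1.1% and 3.87% of all compared genes. Csf1r, the receptor for the growth factor that macrophages need, had medians of 9.10 FPKM in the Apoe-low and 81.7 FPKM in the Apoe-high cells, a difference of -2.21. The other was C1qa, described below with complement. Cell 18, with 8 of the 15 markers, held 0.390 FPKM of Csf1r and 4.62 FPKM of C1qb. It also held 843 FPKM of Batf3 and 2360 FPKM of Mgl2, both from the dendritic cell list. The type of this cell was not tested. The median difference of the marker list was -0.36, and -0.66 without cell 21 and -0.10 without cell 6.

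Of the 30 genes listed for cholesterol and lipoprotein handling, 19 were measured, 1 of these was higher by 2 or more and 0 were lower, which is near the 3.87% and 1.1% of all compared genes. The median difference was 0.18, with 0.81 without the shallow cells, 0.60 within cells 20 to 36, 0.35 within cells 0 to 19, -0.03 against the Apoe-high cells with the most genes and 0.61 without cell 24. The 11 others, which include Apoc1, Apoc4 and Hmgcs1, were at 1 FPKM or more in at most 3 cells of either side. Pltp encodes phospholipid transfer protein, which moves phospholipid between lipoproteins. It spanned 129 to 4465 FPKM in the Apoe-low cells (median 764) and 8.01 to 9208 FPKM in the Apoe-high cells (median 400). The Apoe-low range lay wholly inside the Apoe-high one, with a difference of 1.13 and a pooled SD of 2.20. Cell 25, with the least Apoe of all, held 1493 FPKM of Pltp.

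Abcg1, which exports cholesterol to lipoprotein particles, was the called member. It was at 1 FPKM or more in 7 of 8 Apoe-low cells (0.216 to 441 FPKM, median 58.5) and in 17 of 27 Apoe-high cells (0 to 321 FPKM, median 1.64). The difference was 2.74, with 2.88 within cells 0 to 19 and 2.65 within cells 20 to 36, and 1.95 against the Apoe-high cells with the most genes. Cell 25 was the exception among the Apoe-low cells, at 0.216 FPKM. Abca1, which hands cholesterol to lipid-poor apolipoproteins, had the opposite sign at -1.70. It reached at most 0.0366 FPKM in the Apoe-low cells, whereas 10 of 27 Apoe-high cells held 1 FPKM or more, up to 1280, and it was measured only through those cells. A count of 0 in 8 cells allows a share of up to 37.5%, a limit that covers the sampling of cells only.

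Other members of the list had differences under 2. The liver X receptor gene Nr1h3 was at 1.71, with 4 of 8 and 7 of 27 cells at 1 FPKM or more, and at 0.81 without cell 6. Lpl, the lipase that frees fatty acids from lipoproteins, was at 1.68 (medians of 123 and 8.53 FPKM), Npc2, which passes cholesterol out of the lysosome, at 1.36 and Nceh1, a cholesterol ester hydrolase, at 1.56. Soat1, the enzyme that stores cholesterol as esters, was at 1.17, and Cyp27a1, which makes an oxysterol, at -1.27. Of the 9 measured genes of fatty acid uptake and lipid droplets, 1 was higher by 2 or more and 0 were lower. Over all compared genes these shares were 3.87% and 1.1%. The called gene was Hilpda, a lipid droplet protein induced by hypoxia and fatty acids, at a difference of 2.90. It was held at 1 FPKM or more by 5 of 8 Apoe-low and 6 of 27 Apoe-high cells. Fabp4 and Plin2, a fatty acid carrier and a lipid droplet coat protein, were at 0.56 and 0.31. Neither had a settled direction: Fabp4 was at -0.41 without cell 9 and 1.43 without cell 18, and Plin2 at -0.23 without cell 6 and 1.34 without cell 18.

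The resident, CD206-type genes were the list with the lowest median, -1.84. Of the 16 genes listed, 13 were measured, 6 were lower by 2 or more and 0 were higher, and 12 of the 13 had a negative difference. Of all compared genes, 1.1% were lower and 3.87% higher by 2 or more, and 51.5% had a positive difference. Stab1 and Ccl8, counted among the 6, were measured only through the Apoe-high cells, so they could not have been called higher. The median of the list was -1.89 within cells 0 to 19, -1.71 within cells 20 to 36, -1.56 without the shallow cells and -2.47 against the Apoe-high cells with the most genes. The list was written with earlier results of these data known, so its direction is not independent evidence.

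Sepp1 encodes selenoprotein P, a secreted selenium carrier. It held 19.4 to 2128 FPKM in the Apoe-low cells (median 125) and 36.4 to 20934 in the Apoe-high cells (median 1710). All 35 cells contained it, and 7 of the 8 Apoe-low cells lay below 480 FPKM, with cell 6 alone at 2128. The difference was -3.09, with a pooled SD of 2.10, and the Apoe-low cell was the higher one in 16.2% of all Apoe-low and Apoe-high pairs. It was -3.15 within cells 0 to 19 and -3.03 within cells 20 to 36.

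Mrc1, which encodes CD206, the mannose receptor, had 0.527 to 114 FPKM in the Apoe-low cells (median 38.8) and 0.589 to 1506 FPKM in the Apoe-high cells (median 153). It was detected on both sides, in 7 of 8 and 25 of 27 cells, and differed in level by -2.45. Maf, a transcription factor of resident macrophages, had medians of 6.97 and 70.1 FPKM and a difference of -2.40. Stab1, a scavenger receptor that clears modified lipoproteins and dying cells, was below 1 FPKM in all 8 Apoe-low cells, where its highest value was 0.202 FPKM, and at 1 FPKM or more in 17 of 27 Apoe-high cells (median 6.36, highest 141 FPKM).

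The folate receptor gene Folr2 was at or above 1 FPKM in 4 of 8 Apoe-low and 19 of 27 Apoe-high cells, with 599 FPKM in cell 25 and 271 in cell 6, and differed by -2.30. The chemokine gene Ccl8 was below 1 FPKM in all Apoe-low cells and at or above it in 9 of 27 Apoe-high cells, a difference of -2.01. Pf4, a platelet-type chemokine that resident macrophages also make, was at -1.84, and its Apoe-low values spread from 1.37 to 1824 FPKM. Retnla, a secreted resistin-like protein, was the 1 measured member above 0, at 1.07, and 0.09 without cell 36. Of the members not measured, Lyve1 and Cd209f were each found in 0 Apoe-low and 3 Apoe-high cells, and Timd4 in none of either side.

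**Figure D3:**
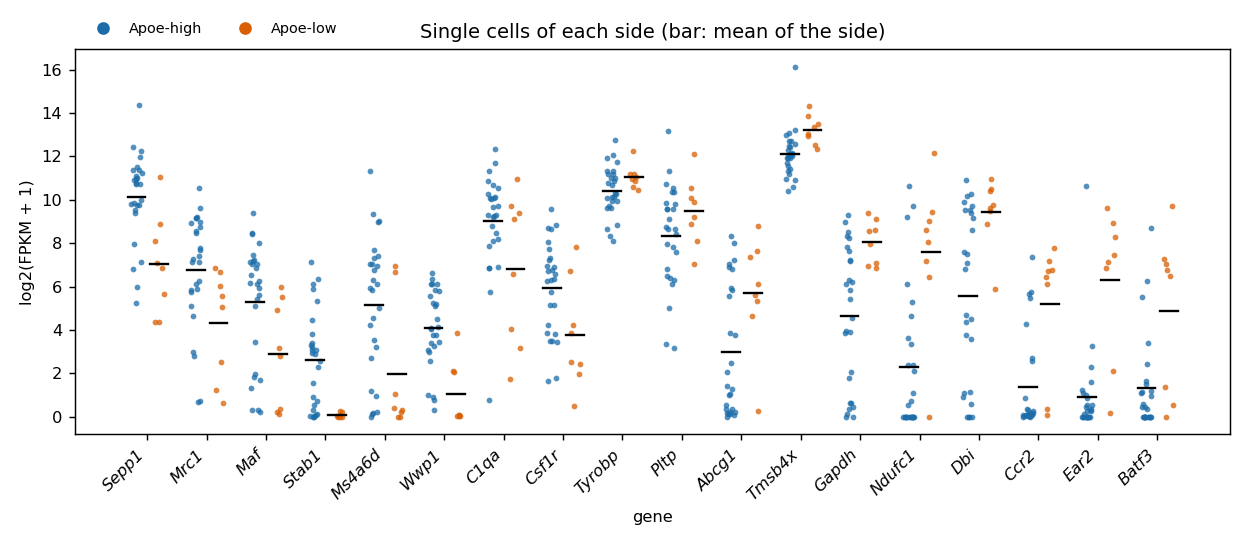
Values of single cells for genes named in the text, as log2(FPKM + 1), with Apoe-high cells in blue, Apoe-low cells in orange and a black bar at the mean of each side. The sides overlap for each gene shown; Stab1 is at the floor in all 8 Apoe-low cells, and Ear2 is above 1 FPKM in 7 of them.

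Of 9 measured complement genes, 1 was lower by 2 or more and 0 were higher, with a median of -1.41, or -0.83 without cell 36. Among all compared genes, 1.1% were lower and 3.87% higher. C1qa, C1qb and C1qc encode the 3 chains of C1q, which starts the classical pathway and is made by macrophages. C1qa spanned 2.31 to 1967 FPKM in the Apoe-low cells (median 324) and 0.715 to 5130 FPKM in the Apoe-high cells (median 632), a difference of -2.17. It was -1.44 without cell 18. Within cells 0 to 19 it was -4.48, and within cells 20 to 36 it was -0.24. C1qc showed the same contrast, at -4.69 and -0.16. The low C1qa values came from cells 18, 36 and 9, which held 2.31, 7.95 and 15.7 FPKM, whereas cell 25 held 670. C1qb differed less, by -1.24, and by -0.11 without cell 18. Cell 18 held 4.62 FPKM of C1qb, but cells 36 and 9 held 1443 and 6598 FPKM.

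Other genes lower in the Apoe-low cells came from several functions. Ms4a6d, a membrane protein of myeloid cells, was at 1 FPKM or more in 3 of 8 Apoe-low and 22 of 27 Apoe-high cells and had the most negative difference, -3.20. Wwp1, a ubiquitin ligase, reached 13.7 FPKM at most in the Apoe-low cells (median 0.0615), against a median of 15.8 FPKM and a highest value of 97.8 in the Apoe-high cells. Its difference of -3.04 had a pooled SD of 1.76. Glul, which makes glutamine, was at -2.97 and exceeded 1 FPKM in 3 of 8 and 25 of 27 cells, with 430 FPKM in cell 6 and 186 in cell 35. Ninj1, which ruptures the membrane of dying cells, was at -2.98, and the lectin receptor gene Clec4a3 at -2.79. Clec4a3 turned to 0.47 when the sides were divided at the median Apoe value. Mt2, a metal-binding metallothionein, was at -2.70, Blvrb, a reductase of heme breakdown, at -2.63, and Ptpn6, which encodes the phosphatase SHP-1, at -2.51. Blvrb differed by -4.47 within cells 20 to 36 and by -0.76 within cells 0 to 19.

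Immediate early genes, which are switched on within minutes by growth factors or stress, had 3 of 15 measured members lower by 2 or more, 0 higher and a median of -1.12. The shares over all compared genes were 1.1% lower and 3.87% higher. Egr1 was at -2.75 (2 of 8 against 18 of 27 cells at 1 FPKM or more), Jun at -2.57 (2 of 8 and 21 of 27) and Btg2, which slows the cell cycle, at -2.50 (3 of 8 and 21 of 27). Jun and Btg2 differed less within cells 20 to 36, by -1.39 and -1.35. Fos was at -1.63 (medians of 79.7 and 338 FPKM), and the gap was -0.53 against the Apoe-high cells with the most genes. Junb and Dusp1 were at -0.09 and -0.25.

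The gene with the largest difference was Ear2, at 5.40. It encodes an eosinophil-associated ribonuclease that monocytes also express, and it shares near-identical sequence with Ear12, so its value is uncertain. Ear2 was at 1 FPKM or more in 7 of 8 Apoe-low cells (0.139 to 780 FPKM, median 156) and in 7 of 27 Apoe-high cells (0 to 1598 FPKM, median 0.207). Of all pairs of an Apoe-low and an Apoe-high cell, the Apoe-low cell was the higher in 88.9%. The difference was 5.79 within cells 0 to 19 and 4.59 within cells 20 to 36. The eosinophil and mast cell list had 0 measured genes, and its summed level was at most 0.121 FPKM in an Apoe-low cell.

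Ccr2, the receptor for CCL2 that brings monocytes into inflamed fat, differed by 3.83. In 6 of 8 Apoe-low cells it lay between 68.7 and 220 FPKM, and cells 6 and 20 were at 0.0476 and 0.291. The Apoe-high median was 0.101 FPKM, and 7 of 27 cells held 1 FPKM or more, up to 163. The difference was of like size within cells 0 to 19 (3.48), within cells 20 to 36 (3.75) and against the Apoe-high cells with the most genes (4.06). Ccr2 and Ear2 were both at 1 FPKM or more in 6 of 8 Apoe-low cells and in 3 of 27 Apoe-high cells, a pair chosen after the values were seen.

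The Ly6C monocyte-like list, to which Ccr2 belongs, was mostly not measured. Of its 14 genes, 5 passed the filter, 3 were higher by 2 or more (Ccr2, S100a4 and Fn1) and 1 was lower (Fcgr4). Over all compared genes the shares were 3.87% higher and 1.1% lower. The fifth, Nr4a1, was at -0.90. The median of the list was 2.15, which with 5 genes is the value of Fn1 alone. It was 1.25 against the Apoe-high cells with the most genes and 1.35 without cell 9. Among the members not measured, Ly6c2 was found in 0 Apoe-low and 1 Apoe-high cell, and Plac8 and Chil3 were listed at 0 in all 35 cells. Ly6c1 was found in 1 and 0 cells, Ifitm6 in 2 (up to 233 FPKM) and 1 (23.4 FPKM), and Cx3cr1 in 1 and 3 (up to 372 FPKM). S100a4, a calcium-binding protein of motile cells, had medians of 148 and 4.97 FPKM and a difference of 2.36, and 1.25 against the Apoe-high cells with the most genes. Fn1, fibronectin, was at 1 FPKM or more in 4 of 8 and 4 of 27 cells and differed by 2.15, or by 1.35 without cell 9. Fcgr4, an antibody receptor of patrolling monocytes and activated macrophages, was below 1 FPKM in all 8 Apoe-low cells and at or above it in 12 of 27 Apoe-high cells, a difference of -2.50 (-3.47 within cells 0 to 19 and -1.07 within cells 20 to 36).

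Batf3, a transcription factor needed by type 1 dendritic cells and also found in monocytes, differed by 3.57. It was at 1 FPKM or more in 6 of 8 Apoe-low cells (median 98.0, highest 843 FPKM in cell 18) and in 10 of 27 Apoe-high cells (median 0.347, highest 415 FPKM). Of the 14 dendritic cell genes listed, 2 were measured, Batf3 and the lectin gene Mgl2 (0.34). Flt3, Ccr7, Xcr1 and Clec9a were listed at 0 in all 35 cells and Zbtb46 reached at most 0.0378 FPKM. Others were present in single cells: Klrd1 reached 232 FPKM in 1 Apoe-low and 1.28 FPKM in 1 Apoe-high cell, Cd24a 69.7 FPKM in 1 Apoe-low cell, and Cd209a 118 FPKM in 1 Apoe-low cell and up to 531 FPKM in 3 Apoe-high cells. At least 3 genes of the list were detected in cells 18 and 36 and in 1 Apoe-high cell. The part of dendritic cells in the differences was not tested. Fibroblast, T cell, B cell, NK cell, neutrophil, adipocyte, endothelial, mesothelial and erythroid lists had at least 3 detected genes in none of the 35 cells.

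Inflammatory cytokine genes had 1 of 11 measured members higher by 2 or more, 0 lower and a median of -0.46, or -0.03 without cell 6. Among all compared genes, 3.87% were higher and 1.1% lower. The called member was Il1b, interleukin-1 beta, at 2.34. It was carried by 3 Apoe-low cells, cell 18 with 289 FPKM, cell 9 with 266 and cell 36 with 120, while the other 5 were below 1 FPKM and the Apoe-high cells reached at most 23.7 FPKM. Gadd45b, a stress-induced gene, was at 3.53 with medians of 151 and 1.35 FPKM. Psmb8, a subunit of the immunoproteasome, which cuts peptides for MHC class I, was at 3.90, found in 7 of 8 and 11 of 27 cells.

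Of 30 measured respiratory chain genes, 9 were higher by 2 or more in the Apoe-low cells, 0 were lower and 27 had a positive difference, with a median of 1.10, or 1.73 without cell 9. Of all compared genes, 3.87% were higher by 2 or more, 1.1% were lower and 51.5% had a positive difference. Uqcrh, of complex III, had the lowest difference of the list, at -0.85. The 9 were Ndufc1, Ndufb9 and Ndufa1 of complex I, Uqcrb and Uqcr10 of complex III, Cox6c and Cox7a2 of complex IV and Atp5e and Atp5b of the ATP synthase. Ndufc1 differed by 5.33, from 0 to 4526 FPKM in the Apoe-low cells (median 327, with 7 of 8 at 1 FPKM or more) and from 0 to 1579 FPKM in the Apoe-high cells (median 0.464, with 12 of 27). Outside the list, the complex I gene Ndufb5 was at 4.23 and the ATP synthase gene Atp5d at 3.71. Ndufc1, Ndufb9 and Ndufa1 were each listed at 0 in cells of both sides. The median number of detected genes was higher by 328.5 in the Apoe-low cells, but lower within cells 0 to 19 (-276) and against the Apoe-high cells with the most genes (-66.5). Against the latter, the median of the list was 0.60. Within cells 0 to 19 the median was 0.68 and within cells 20 to 36 it was 1.94, and Atp5b changed sign (-0.82 and 4.02) as did Cox6c (4.71 and -0.12).

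Glycolysis showed 2 of 12 measured genes higher by 2 or more, 0 lower and a median of 1.29, while Gpi1 and Hk3 were at -1.16 and -0.79. Over all compared genes the shares were 3.87% higher and 1.1% lower. The median of the list was 0.42 within cells 0 to 19, 1.34 within cells 20 to 36 and 1.03 against the Apoe-high cells with the most genes. Gapdh, a glycolytic enzyme often used as a reference gene, differed by 3.42. It lay between 114 and 666 FPKM in all 8 Apoe-low cells (median 314) and between 0 and 634 FPKM in the Apoe-high cells (median 42.7), of which 20 of 27 held 1 FPKM or more. The difference was 3.60 against the Apoe-high cells with the most genes, 3.96 within cells 0 to 19 and 2.83 within cells 20 to 36. The other called gene, Eno1, was at 1 FPKM or more in 3 of 8 and 2 of 27 cells, so its 2.25 rests on 3 cells, and it was 1.43 without cell 20. Cells 6, 21, 25 and 36 were listed at 0.000175 FPKM or less but not at 0, so the value of Eno1 is uncertain. The cause of such small values was not tested. Ldha, which makes lactate, was at 1.96, and Pkm at 1.01.

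Actin cytoskeleton genes had 5 of 16 members higher by 2 or more (Myl6, Cotl1, Arpc5, Actg1 and Coro1a), 0 lower and a median of 0.90. Among all compared genes, 3.87% were higher and 1.1% lower. The median of the list was 0.47 within cells 0 to 19, 1.26 within cells 20 to 36 and 0.50 against the Apoe-high cells with the most genes. Tmsb4x, thymosin beta 4, which binds actin monomers, differed by 1.13 with a pooled SD of 1.01. Its values were 5140 to 20842 FPKM in the Apoe-low cells (median 9457) and 1352 to 71751 in the Apoe-high cells (median 4145), and the Apoe-low cell was the higher in 87.5% of pairs. Actb, the main actin gene, differed by 0.28. Ribosomal protein genes had 1 of 38 higher (Rps2, 2.48), 0 lower and a median of 0.60, or 0.31 with median-ratio scaling.

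Single genes outside these lists also stood high. Dbi, an acyl-CoA-binding protein, was at 3.85 and present in all 8 Apoe-low cells (58.5 to 1973 FPKM, median 821) and in 21 of 27 Apoe-high cells (median 111 FPKM). Daglb, the lipase that makes the endocannabinoid 2-arachidonoylglycerol, was at 4.23, with 15.4 to 830 FPKM in the Apoe-low cells (median 107) and a median of 0.752 FPKM in the Apoe-high cells. Edf1, a transcriptional coactivator and ribosome collision sensor, was at 3.90, and Ppp6c, a phosphatase catalytic subunit, at 3.68.

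Lists of other macrophage functions had at most 2 members past 2, beside 3.87% of all compared genes higher and 1.1% lower. MHC class II presentation had 0 of 8 genes past 2 in either direction and a median of 0.36, which was 0.02 without cell 18 and 1.19 without cell 35. Cd74, the invariant chain, had medians of 7609 and 5670 FPKM, with 301 FPKM in cell 35 as the lowest Apoe-low value. The CD9 lipid-associated list had 1 of 17 higher, 0 lower and a median of 0.56, which was -0.43 within cells 0 to 19, 1.26 within cells 20 to 36, -0.01 without cell 35 and 1.21 without cell 18. Its called gene, Anxa2, a membrane-binding annexin, differed by 2.59, and by 0.43 against the Apoe-high cells with the most genes. Lysosomal genes had 0 of 24 higher and 1 lower, Grn, the lysosomal growth factor progranulin, at -2.02. Iron handling had 1 of 11 lower, Blvrb, and antioxidant enzymes 1 of 14, Sepp1. MHC class I presentation had 1 of 7 higher (Pdia3, 2.85), and efferocytosis genes 2 of 12 lower (Stab1 and C1qa), which other lists hold too. Heat shock genes had 1 of 9 higher (Hspe1, a mitochondrial chaperone, 2.06, or 1.20 without cell 9), and none of the 4 proliferation and 2 interferon response genes that were measured passed 2 in either direction.

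**Figure D4:**
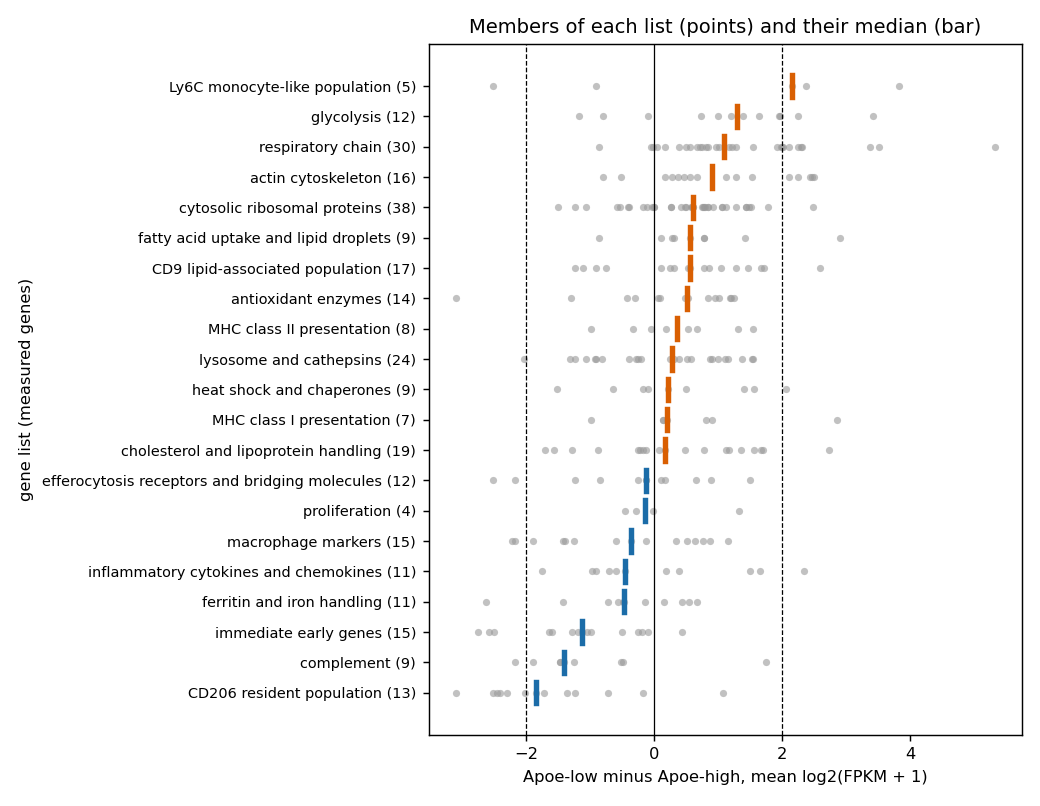
Difference of the mean log2(FPKM + 1), Apoe-low minus Apoe-high, for the measured members (grey points) of each list with at least 4 of them, and the median of the list (coloured bar); dashed lines mark 2 and -2, and numbers in brackets count the measured members. The CD206 resident list lies lowest at -1.84, complement at -1.41 and immediate early genes at -1.12, and the Ly6C list, with 5 members, highest at 2.15.

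The 8 Apoe-low cells were not 1 uniform set. Over the measured genes, the mean Spearman rho between 2 Apoe-low cells was 0.341, against 0.302 between 2 Apoe-high cells and 0.312 across the sides, and the ranges overlapped (0.272 to 0.450, 0.225 to 0.433 and 0.219 to 0.467). Cells 20, 21 and 25 were the most alike, with rho from 0.435 to 0.450, and 6 of the 7 pairs that include cell 9 had a rho of 0.303 or less. Cell 9 also had the fewest genes of the Apoe-low cells, 1254, and the highest FPKM sum. In cells 20, 21 and 25, 1 fragment was worth 0.630, 0.248 and 0.539, below the Apoe-low median of 0.812. The part of depth in their likeness was not tested.

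Genes were then followed cell by cell. Trem2, a lipid receptor of lipid-associated macrophages, Cd9, a tetraspanin, and Emr1, which encodes F4/80, were looked at after their values were seen. Trem2 was at 74.9 to 394 FPKM in cells 21, 6, 20, 35 and 9 and below 1 FPKM in cells 25, 36 and 18, the 3 cells with the least Apoe. Cd9 was at 243 to 537 FPKM in cells 21, 6, 20 and 35 and at 36.9 FPKM or less in the other 4. Emr1 was at 286 to 325 FPKM in cells 21, 6 and 20, at 34.2 FPKM in cell 35, and at 22.2 FPKM or less in the other 4. Retnla ran the other way, with 1021, 6913 and 647 FPKM in cells 25, 36 and 18 and at most 18.9 FPKM in the other 5. The MHC class II gene H2-Ab1 was at 3350 FPKM or more in 6 of the 8 cells, at 808 FPKM in cell 6 and at 12.7 FPKM in cell 35. Ccr2 and Ear2 crossed this order, since cells 21 and 35 held both and cells 6 and 20 held little Ccr2.

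**Figure D5:**
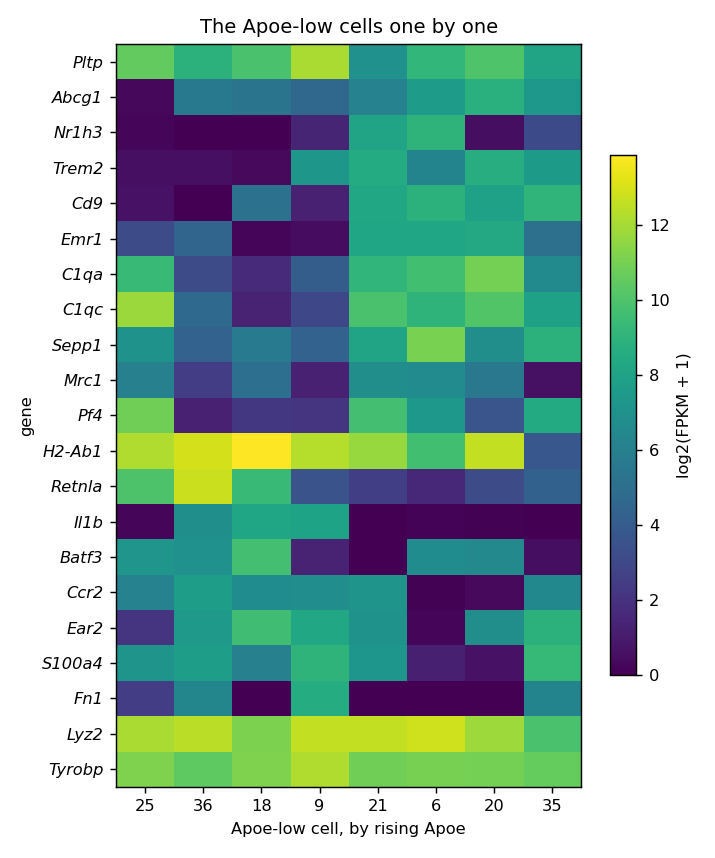
Each of the 8 Apoe-low cells (columns, by rising Apoe) for genes named in the text (rows), coloured by log2(FPKM + 1). Trem2 and Cd9 are bright together in cells 21, 6, 20 and 35, Retnla in cells 25, 36 and 18, and Lyz2 and Tyrobp in all 8 cells.

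Inside the Apoe-high side, where the threshold does not set the order, Apoe was compared with 913 genes found at 1 FPKM or more in at least 50% of the 27 cells. The Spearman rho reached 0.5 for 6 genes and -0.5 for 1. How many of 913 unrelated genes would reach this size in 27 cells was not tested, so chance may account for them. The highest were Arhgap30, a GTPase-activating protein, at 0.55, Kif5b, a kinesin motor, at 0.55, Irf2bp2, a transcriptional repressor, at 0.55, the nuclear RNA Malat1 at 0.53 and Sat1, a polyamine enzyme, at 0.52. The last of the 6 was Clec10a, a member of the CD206 resident list, at 0.52. The lowest was Mfsd1, a lysosomal transporter, at -0.51. Apoe also had a rho of 0.35 with what 1 fragment was worth and of 0.27 with the FPKM sum of the cell. None of these 7 genes stayed at 0.5 or more in size once each cell was scaled to the same sum: Arhgap30 was at 0.23, Kif5b at 0.22, Irf2bp2 at 0.36, Malat1 at 0.21, Sat1 at 0.47, Clec10a at 0.32 and Mfsd1 at -0.37. The 12 genes past 0.5 in size after scaling were all different from the 7, so no gene passed both ways. Of the resident genes called lower in Apoe-low cells, Sepp1 was at 0.04, Maf at 0.07, Folr2 at -0.03, Stab1 at -0.20 and Mrc1 at -0.26. After scaling they were at 0.31, 0.27, -0.03, -0.02 and -0.14. Ccl8 was in too few Apoe-high cells to be compared. Before scaling, the genes called lower had a median rho of 0.12, and all 913 genes had 0.03.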

How the data were processed

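The deposited table holds FPKM values of 23947 genes in 37 cells. The submitters' processing notes name STAR, Cuffnorm and the mouse build mm9 for what the authors did before they deposited the FPKM, and no version, annotation or setting is given in the sources used here. FPKM are no counts, so no count model was used, and the fragments behind a value are unknown. Values were transformed to log2(FPKM + 1), which understates differences of genes at low values. Python 3.11.15 with pandas 2.3.3, numpy 2.4.6 and scipy 1.17.1 was used.

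The sides were cells below and at or above 2500 FPKM of Apoe, without cells 7 and 27. Genes at 1 FPKM or more in at least 5 of the 35 cells were compared, and a difference of 2 between means was called. The members and the 33 gene lists (460 genes, 454 matched) were chosen with earlier results of these data known. Named genes were Apoe and Pltp; the 12 with the largest difference in each direction at 1 FPKM or more in at least 50% of the higher side; the measured cholesterol genes; of every other list the 4 highest by mean and those past 2; and the 5 highest and 5 lowest correlations inside the Apoe-high side. A count of 0 was taken to allow 3 counts of the total. What 1 fragment was worth was estimated from low values (0.005 to 1 FPKM), as their commonest ratio in each of 666 pairs of cells, of which 648 were kept, and the script was tested on simulated data. Cell numbers from the labels name the cells; no animal is named, so there are no replicates and no test. Symbols are the table's own: Emr1 is now Adgre1, and Sepp1 is now Selenop. Some genes are not reported here. No coordinates are printed, since the reference at hand is of another build.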

Additional observations from a re-analysis of the deposited data

How the results depend on the processing

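The counts of 169 higher and 48 lower genes (217 in all) depended on the scale. They were 456 and 183 (639) with a pseudocount of 0.1, 28 and 2 (30) with 10, 346 and 73 (419) with cells scaled to the same FPKM sum, 106 higher with median-ratio scaling, 361 and 79 (440) for medians, 705 and 420 (1125) for a call at 1 and 36 and 3 (39) at 3. With the sides divided at 1000 FPKM 115 were lower, at 5000 FPKM 23 were lower, and at the median of 11335 FPKM 60 were higher (95 in all). Within cells 0 to 19 there were 341 and 282 (623), and within cells 20 to 36 there were 414 and 121 (535), in fewer cells. 2 settings were chosen after seeing the data. Against the 13 Apoe-high cells with the most genes, 147 were lower, and against the 8 in which 1 fragment was worth no more than its median in Apoe-low cells, 370 were higher (441 in all). Of the 57 named genes past 2, 17 stayed past 2 with a pseudocount of 10, 16 with sides divided at the median and between 37 and 57 elsewhere. The cause of these changes was not tested.

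Lists of at least 4 measured genes with a median of 1 or more in size numbered 6 in the main comparison, 2 with a pseudocount of 10, 0 with sides divided at the median and 10 against the second added set. The difference in median genes per cell, 328.5, was -276 within cells 0 to 19 and -66.5 against the Apoe-high cells with the most genes. Of the 57 named genes past 2, those that changed sign in a setting other than leaving out 1 cell were Eno1 (-0.000149 at 1000 FPKM and -0.000211 for medians), Clec4a3 (0.47) and Arpc5 (-0.14) with sides divided at the median, Atp5b (-0.82) within cells 0 to 19 and Cox6c (-0.12) within cells 20 to 36. The mean rho of Apoe-low cells, 0.341, was 0.439 with no filter and 0.400 as Pearson r. Inside the 27 Apoe-high cells, 7 genes had a rho of 0.5 or more in size with Apoe, and 12 after scaling. With sides divided at 1000 FPKM, 5000 FPKM and the median they were 3, 11 and 42, in 30, 25 and 18 cells. Without shallow cells they were 11, in 21 cells. Within cells 0 to 19 and 20 to 36 they were 65 and 87, in 16 and 11 Apoe-high cells. In the added sets they were 119 and 206, in 13 and 8 cells. Unrelated genes reach 0.5 more often in fewer cells, so these counts cannot be compared directly.

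Leaving out each cell in turn gave 205 to 286 genes, 155 to 240 higher (240 without cell 9) and 44 to 60 lower. It gave 3 to 7 lists (3 without cell 36), a difference of 288 to 369 genes per cell, a mean rho of 0.331 to 0.353 and 6 to 15 genes inside the Apoe-high side, a count moved by over 1.5 times without cell 8, 17, 33 or 34. Of the named genes, 0 of the 57 past 2 and 34 of the 95 under 2 changed sign when 1 cell was left out. No paired analysis was possible because all cells belong to 1 group and their numbers pair nothing.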
